A study of Lotus japonicus with 6 samples.

Results

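MADS-box genes encode transcription factors that share the DNA-binding MADS domain, and the array carried 86 of them out of 2950 genes. Members were all non-control spots whose name contains MADS: 362 spots of 181 probes under 98 names, of which 12 end in _est and were taken with the gene of the same number. The names run from LjMADS1 to LjMADS87. The samples were leaves of Lotus japonicus MG20 plants, a model legume, grown in vitro on diluted MS medium. They came from 3 independently transformed lines, labelled as overexpressors of LjMyb14, a MYB transcription factor, driven by the constitutive Lotus ubiquitin promoter, and from wild type. Each line gave 1 sample, so line and sample cannot be told apart. Wild type has 3 arrays. Plant age is not given in the labels.

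Plant MADS-domain proteins bind a short AT-rich motif, the CArG box, and mostly act as complexes of several family members. Those of the MIKC type specify sepals, petals, stamens and carpels in the flower, set flowering time, partly from the leaf, and act in root and fruit development. Those called type I are known mainly from the female gametophyte and endosperm of Arabidopsis. The array gives the members numbers only, with no subfamily, position or Arabidopsis counterpart. No gene name on the array, these 86 included, matched the RefSeq gene table of this species. No role is therefore given to a single member below.

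All signals are log2 processed intensity minus the 75th percentile of the same array, and differences are lines minus wild type. Within groups, wild type arrays 1 and 3 gave a variance of their difference of 0.444 times that from spot noise, against 2.76 to 11.3 times in the remaining pairs. Since they differed by less than spot noise they count as 1 sample, their mean, which leaves 3 lines against 2 wild type samples, and every error below is an SD over these. The labels do not say that the wild type arrays came from separate plants, so p-values measure the spread between these samples only. Arrays had 75th percentiles between 364 and 404 intensity units. The measured LjMYB14 signal does not bear out the label of the lines at the 1 probe tested. That probe lay at -5.79, -4.62 and -6.03 in lines 1, 2 and 3, against -6.07, -5.20 and -5.89 in wild type (log2 fold change 0.11, limma adjusted p = 0.939). A second, dimmer probe, not tested, lay at -6.92, -5.95 and -7.44 in the lines, against -7.85, -7.82 and -6.83 in wild type. It was well above background in 1 line and on no wild type array, and the groups overlapped. Whether either probe reads the introduced copy is not known, and every direction below is for lines so labelled. No gene that marks leaf photosynthesis, root nodules or a named class of floral organs was found by name on the array, so the tissue label could not be checked by such markers.

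Most MADS-box genes were dim in leaf. In both groups together, 34 of the 86 had a probe well above background on all 6 arrays, 33 had one on fewer arrays, and 19 had none on any array. A probe counted as well above background where at least 0.5 of its spots carried that flag of the scanner software. Where all spots had to carry it, 25 genes passed on all 6 arrays and 34 on none. Of single spot readings, 38.4% of 2172 MADS-box readings were flagged, against 0.649% of 462 negative control readings. By group, 44 genes had a probe well above background in all 3 lines and 37 in all 3 wild type arrays, and these counts were not made over all genes. Single arrays gave 55, 49 and 53 genes in lines 1, 2 and 3, against 46, 53 and 41 genes in wild type arrays 1, 2 and 3. The groups overlap in this count, and wild type array 3 was the lowest. Over all probes, the share well above background was 79.5%, 77.3% and 80.4% in lines 1, 2 and 3. In wild type arrays 1, 2 and 3 it was 78.1%, 80.1% and 74.2%, so array 3 was the lowest there too.

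The family was seen less often than the rest of the array. A measured gene had a probe well above background on at least 3 of the 6 arrays, which 61.6% of MADS-box genes reached, against 86.9% of the other 2864 genes. The share with a probe on all 6 arrays was 39.5% against 78.3%, and the share with none on any array was 22.1% against 6.74%. Codes were taken from names made of Lj, a code and a number, so families named otherwise are not ranked. Among the 17 such codes with at least 20 genes, MADS had the lowest share measured. The next lowest were MYB at 75.4% and NAM, the NAC-domain code, at 77.1%. These shares describe 1 tissue and this set of probes. A low transcript level and a weakly binding probe cannot be told apart here, nor can fewer cells of a type and less RNA per cell.

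Detection went with the number in the name. Of the 40 genes numbered up to 40, 32 were measured and 26 had a probe well above background on all 6 arrays, against 21 measured and 8 on all arrays of the 46 genes with higher numbers. LjMADS11 to LjMADS20 were all measured, and 9 of these 10 were above background on every array. Of LjMADS71 to LjMADS80, none of 9 was. The split at 40 was chosen after these values were seen, and the labels do not say what the numbers stand for. A second name ending in _est accompanied 12 genes, and 10 of these were measured, against 43 of the other 74.

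**Figure D1:**
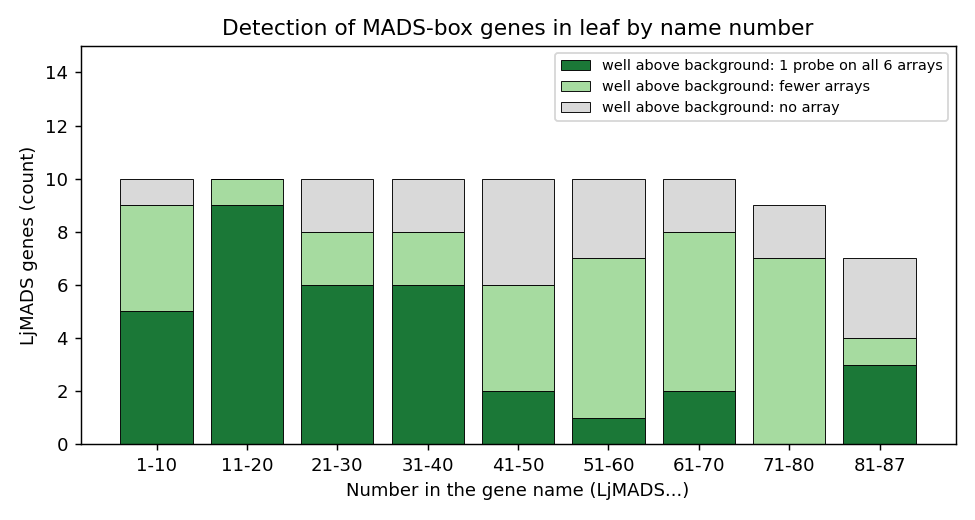
Number of LjMADS genes (vertical axis, count) by the number in their name (horizontal axis, blocks of 10). Dark green marks genes with 1 probe well above background on all 6 arrays, light green fewer arrays, grey none: the block from 11 to 20 has 9 of 10 genes in dark green and the block from 71 to 80 has 0 of 9.

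The 19 genes without a probe above background on any array were LjMADS4, LjMADS21, LjMADS28, LjMADS34, LjMADS40, LjMADS44, LjMADS46, LjMADS48, LjMADS49, LjMADS52, LjMADS59, LjMADS60, LjMADS66, LjMADS67, LjMADS75, LjMADS77, LjMADS81, LjMADS83 and LjMADS85. Their transcripts were not detectable here, which does not show that they are absent. Another 15 genes were above background in 1 group only, 8 in the lines and 7 in wild type. Of these, 6 in the lines and 6 in wild type rested on a single array, LjMADS42 on 2 lines and LjMADS84 on 2 wild type arrays. LjMADS80 was the exception, with a probe above background in all 3 lines and on no wild type array. Detection in 1 group only was not counted over all genes, so these counts are not read as a trait of the family.

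LjMADS19 was the MADS-box gene with the largest rise. Its brighter probe lay at 1.65, 1.61 and 1.37 in lines 1, 2 and 3, against -1.02, -0.999 and -1.18 in wild type arrays 1, 2 and 3. In processed intensity these are 1265, 1192 and 1042 units in the lines, against 191, 182 and 171 units in wild type. The lines are close to each other and every one of them stands far above every wild type array. The mean was 1.54 ± 0.15 in the lines (SD, n = 3) and -1.05 ± 0.07 in wild type (SD, n = 2), a rise of 2.59 on the log2 scale or 6.03-fold, with a 95% interval from 2.09 to 3.09 (limma adjusted p = 0.00740). The dimmer probe rose by 2.31 (adjusted p = 0.0125), from separate spots of the same arrays.

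LjMADS43 fell, and it was the only member called lower. Its brighter probe lay at -0.11, 0.30 and 0.25 in the lines, against 2.26, 2.38 and 2.24 in wild type. As processed intensity that is 374, 479 and 477 units in the lines, against 1854, 1896 and 1829 units in wild type, so the gene was bright in wild type leaf and still clearly above background in each line. The mean was 0.14 ± 0.22 in the lines (SD, n = 3) and 2.31 ± 0.09 in wild type (SD, n = 2). The fold change was -2.17 on the log2 scale, or 4.50-fold lower, with a 95% interval from -2.72 to -1.62 (limma adjusted p = 0.0138). Its other probe gave -2.28 (adjusted p = 0.0218).

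Both calls rest on few samples. They ended with line 1 left out (adjusted p = 0.0592 for LjMADS19 and 0.0841 for LjMADS43), with wild type array 2 left out (0.0905 and 0.164) and with the averaged wild type arrays left out (0.115 and 0.157). Leaving out either wild type sample leaves a single one, assumed to vary as the lines do, and only 3 genes of the whole array were called in each of those fits. The calls were also lost when scaled on the spike-in probes (0.0772 for each) and with the row of the slide as a block (0.109 for each), while the fold change stayed between 2.23 and 2.69 for LjMADS19 and between -2.43 and -1.97 for LjMADS43 in the 18 alternatives that gave them a value. Wild type and line 1 share a row of the slide and lines 2 and 3 the other, so within a row only line 1 can be set against wild type, and there the differences were 2.69 and -2.43.

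These were the only 2 of the 53 measured members below an adjusted p of 0.05 (limma, Benjamini-Hochberg over all 5038 probes tested). The called share was 1.89% in each direction, against 2.32% called higher and 1.18% called lower among all 2543 genes measured. Over all probes these shares were 2.3% and 1.13%. Of the 53, 19 had no probe above background on every array, and a gene can pass through 1 group alone, so the 53 do not stand for all 86. The family was thus called about as often as the array as a whole. At least 2-fold differences were found in 8 members, 6 higher and 2 lower, or 15.1% against 11.8% of all genes. At an unadjusted p under 0.05, 9 members were higher and 3 lower, or 17% and 5.66%, against 9.83% and 10% of all genes.

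More members had a positive than a negative fold change, most of them below the threshold. The median log2 fold change of the 53 members was 0.24, with the middle of them between -0.19 and 0.61, against a median of -0.08 for all genes. Scaled on spike-in probes the medians were 0.06 for the members and -0.26 for all genes, and unscaled they were 0.32 and 0.0035. With normexp background correction they were -0.04 and -0.07. The median over members was 0.30, 0.16 and 0.56 in lines 1, 2 and 3, against -0.06, -0.12 and 0.007 over all genes. A positive fold change was found in 62.3% of members against 42.5% of all genes. In 13 members every line lay above every wild type array, 24.5% against 15.9% of all genes, and in 3 members every line lay below, 5.66% against 21.1%. The 13 include LjMADS2 and LjMADS80, which passed the filter through the lines alone, so their higher signal there was built into the selection. For LjMADS17, also among the 13, the lines sufficed to pass it, with 1 wild type array well above background. Among genes above background on all 6 arrays the medians were 0.16 for the members and -0.09 for all genes. With no filter on dim probes they were 0.12 and -0.07. By level, the 26 with a mean signal under -4.61 had a median of 0.30 and the 27 brighter ones 0.10, where all genes over the same ranges gave -0.04 and -0.09. A positive fold change was found in 19 of the dimmer and 14 of the brighter members. Over all genes these were 187 of 420 and 894 of 2123.

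**Figure D2:**
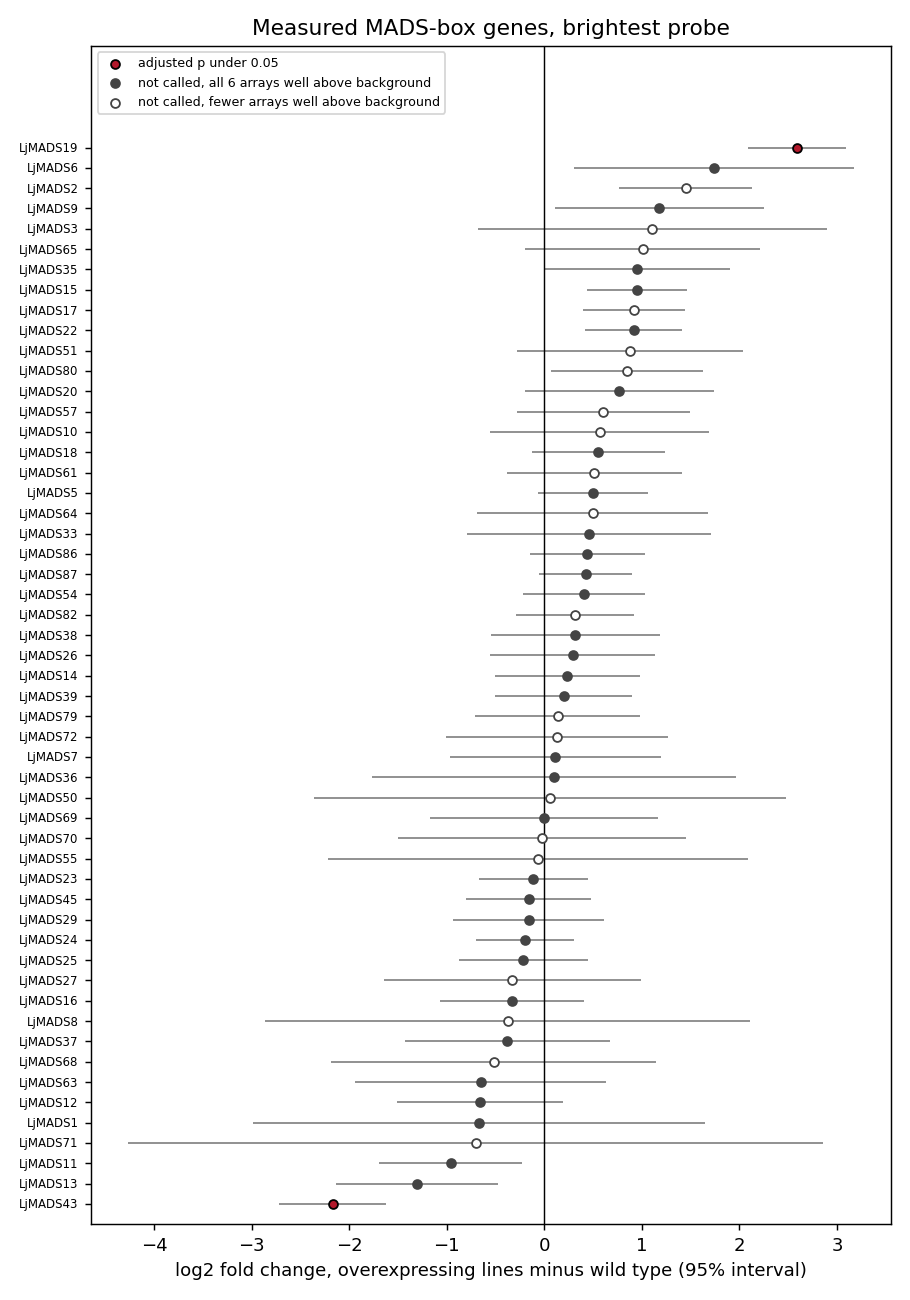
Log2 fold change of the 53 measured MADS-box genes at the brightest probe (horizontal axis, lines minus wild type, point with 95% interval), one gene per row. Red points are called, filled grey points were above background on all 6 arrays and open points on fewer: LjMADS19 at 2.59 and LjMADS43 at -2.17 stand at the ends.

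Several members that missed the threshold still separated the groups. LjMADS22 lay at 0.70, 0.48 and 0.66 in the lines, against -0.18, -0.41 and -0.21 in wild type. The groups do not overlap, and the fold change was 0.92 on the log2 scale with a 95% interval from 0.41 to 1.42 (adjusted p = 0.0824). LjMADS15 lay at -2.31, -2.14 and -2.37 in the lines, against -3.04, -3.36 and -3.13 in wild type, again with no overlap. Its fold change was 0.95, with an interval from 0.44 to 1.46 (adjusted p = 0.0818), and its other probes gave 1.11 and 1.13. LjMADS17, at -4.92, -5.19 and -5.14 in the lines against -6.21, -5.87 and -6.07 in wild type, gave 0.92 (limma adjusted p = 0.0893). All 3 lines and 1 wild type array were well above background, so the lines alone sufficed to pass the filter. Its other probe, not tested, lay at -6.88, -7.36 and -5.90 in the lines, against -7.59, -7.32 and -7.15 in wild type. There the groups overlapped, and only line 3 was well above background.

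LjMADS2 came closest to the threshold at its brightest probe. That probe lay at -5.87, -6.05 and -5.34 in the lines, against -7.57, -7.12 and -6.99 in wild type, and was well above background in every line and on no wild type array. The log2 fold change was 1.45 (adjusted p = 0.0586). Its dimmer _est probe, not tested, averaged -6.54 in the lines and -7.15 in wild type with overlapping groups, and was well above background on wild type array 2. LjMADS80 lay at -6.24, -6.07 and -6.35 in the lines, against -7.30, -6.62 and -7.73 in wild type, where neither of its probes was well above background. The floor of an array is the lowest signal of a probe well above background there. With the higher of floor and measured signal as the wild type level, the lines were 1.44-fold higher. This is not a lower limit, since normexp background correction gave a log2 fold change of 0.03. The fitted log2 fold change was 0.85 (limma adjusted p = 0.225). Both probes were tested only because all 3 lines passed the filter, so a higher signal in the lines was built into their selection and these values are a description.

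LjMADS6 and LjMADS9 differed between the groups with a wide spread over the lines. LjMADS6 lay at -2.58, -3.88 and -1.95 in the lines, against -4.30, -4.72 and -4.43 in wild type. Line 2 was much nearer to wild type than lines 1 and 3, the fold change was 1.74 with an interval from 0.30 to 3.18 (adjusted p = 0.188), and it depended on the line left out: 1.63 without line 1 (adjusted p = 0.447), 2.28 without line 2 (0.0227) and 1.31 without line 3 (0.240). Its other 2 probes gave 1.95 and 1.98. LjMADS9 lay at -3.67, -2.66 and -3.45 in the lines, against -3.89, -4.91 and -4.05 in wild type, so that here line 2 was the highest. Its fold change was 1.18 (adjusted p = 0.219), with 1.40 and 1.49 at its other probes.

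Other members on the upper side were less separated or smaller. LjMADS35 lay at -4.01, -3.69 and -4.87 in the lines, against -4.81, -5.15 and -5.47 in wild type, and line 3 overlapped wild type (log2 fold change 0.96, adjusted p = 0.249). For LjMADS65 the fold change was 1.01 with an interval from -0.19 to 2.21. In LjMADS5 and LjMADS87 the differences were small, with every line above every wild type array. LjMADS87 was at -3.71, -3.82 and -3.60 in the lines, against -4.22, -4.10 and -4.13 in wild type (log2 fold change 0.43, interval from -0.05 to 0.90). For LjMADS5 the mean was -3.94 ± 0.25 in the lines (SD, n = 3) and -4.44 ± 0.01 in wild type (SD, n = 2), with an interval of the difference from -0.07 to 1.06.

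Most of these upper differences shrank with normexp background correction, which adds an offset of 50 intensity units before the log and so compresses dim signals. The log2 fold change was then 0.03 for LjMADS2, 0.06 for LjMADS17, 0.03 for LjMADS80, 0.31 for LjMADS9, 0.19 for LjMADS35 and 0.62 for LjMADS6, none of them called. LjMADS65 gave -0.0006, LjMADS5 0.08 and LjMADS87 0.08. LjMADS15 gave 0.48 (adjusted p = 0.0735) and LjMADS22 0.79 (adjusted p = 0.0262).

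On the lower side LjMADS13 followed LjMADS43. It lay at 1.10, 0.17 and 0.29 in the lines, against 1.91, 1.76 and 1.90 in wild type, and the groups do not overlap. Line 1 was nearer to wild type than lines 2 and 3. The fold change was -1.31 on the log2 scale, with an interval from -2.14 to -0.47 (adjusted p = 0.113), and the other 2 probes gave -1.35 and -1.27. LjMADS11 lay at -2.95, -3.73 and -3.42 in the lines, against -2.31, -2.55 and -2.20 in wild type, with a fold change of -0.96 (adjusted p = 0.163). Its dimmer probe gave -0.27, with overlapping groups.

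LjMADS12, LjMADS1 and LjMADS63 had similar mean differences of -0.66, -0.67 and -0.65 at the brightest probe, where in each the groups overlapped. LjMADS12 was at -1.23, -1.77 and -0.82 in the lines, against -0.42, -0.84 and -0.35 in wild type (interval from -1.51 to 0.19). At its other probe the groups were apart, at -1.40, -1.80 and -1.05 in the lines against -0.52, -0.915 and -0.64 in wild type. That probe gave a log2 fold change of -0.67 (limma adjusted p = 0.283). For LjMADS63 the interval ran from -1.94 to 0.63, and for LjMADS1 from -2.98 to 1.65. Lower differences shrank with normexp background correction too. The log2 fold change was then -1.18 for LjMADS13, -0.49 for LjMADS11, -0.53 for LjMADS12, -0.38 for LjMADS1 and -0.14 for LjMADS63, none of them called.

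**Figure D3:**
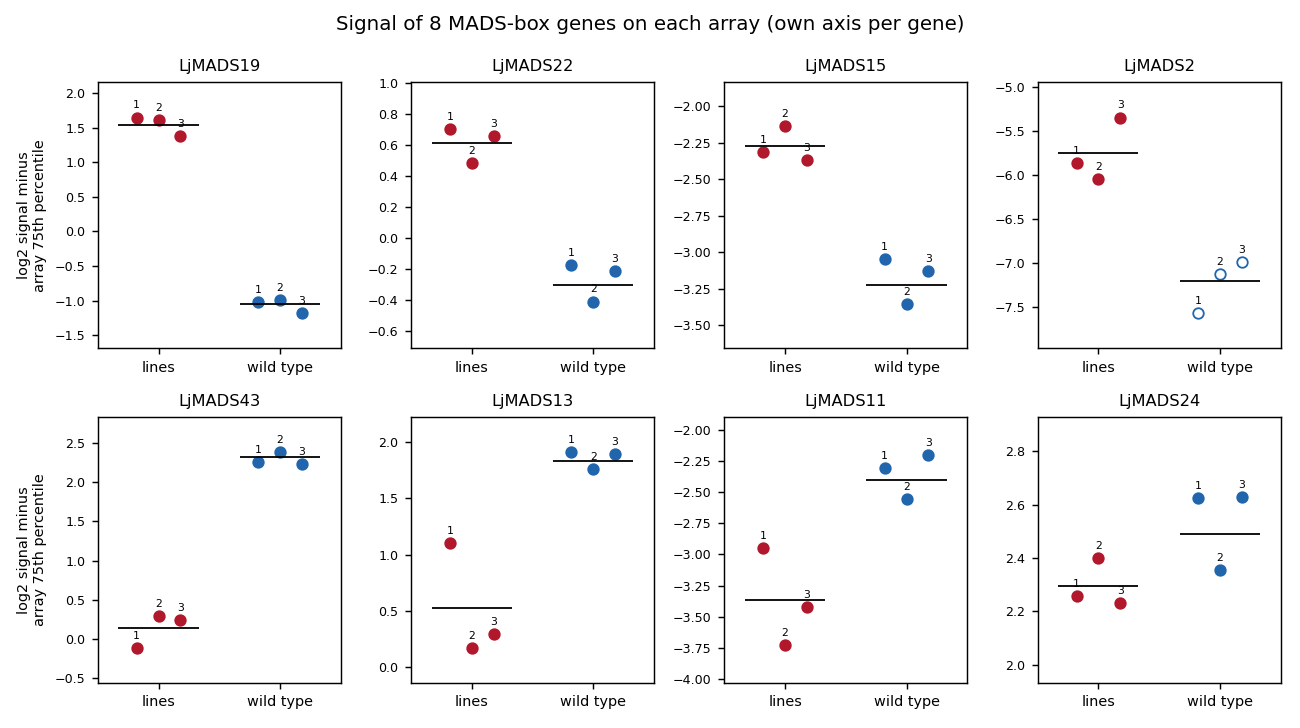
Signal of 8 MADS-box genes on each array (vertical axis, log2 minus the array's 75th percentile, own range per gene), with the lines in red and wild type in blue, numbered by line or array. Filled points were well above background and bars are group means: the groups are apart in LjMADS19, LjMADS22, LjMADS15, LjMADS2, LjMADS43, LjMADS13 and LjMADS11, and overlap in LjMADS24 at this probe.

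The members whose difference was fixed most narrowly were LjMADS87, LjMADS19, LjMADS22, LjMADS24 and LjMADS15, each at its brightest probe. The other probe of LjMADS87 gave 0.91, just above the interval of the brightest. LjMADS24 was at 2.26, 2.40 and 2.23 in the lines, against 2.63, 2.35 and 2.63 in wild type. The groups overlap, and the fold change of -0.19 had an interval from -0.70 to 0.31, with an adjusted p of 0.667 that does not show equal levels. At its dimmer probe the groups were apart, at 1.92, 2.01 and 1.88 in the lines against 2.31, 2.25 and 2.31 in wild type (log2 fold change -0.34, adjusted p = 0.380).

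Where a gene had at least 2 measured probes they gave similar answers. This was so for 21 members, with a median range of 0.24 between probes of 1 gene on the log2 scale, and in none did probes differ by over 1. The probes had the same sign in 20 members. In LjMADS82 they gave 0.32 and -0.07. The widest range, 0.80, was in LjMADS14, whose brightest probe gave 0.24 (adjusted p = 0.729) and the others 0.83 (adjusted p = 0.132) and 1.03 (adjusted p = 0.215). On 1 array the median SD between spots of a probe was 0.10, over the 52 MADS-box probes above background on all arrays.

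The lines differed among themselves more than the wild type arrays did in most members. The range over the 3 lines had a median of 0.88 and that over the 3 wild type arrays 0.64, and it was wider in the lines for 41 of 53 members. Since wild type arrays 1 and 3 are nearly alike, the wild type range is in effect that of 2 samples. Over all probes above background on all arrays, pairs of lines also differed more. Their variance of the difference was 4.87 to 11.3 times that from spot noise, against 0.444 to 2.84 times in wild type pairs. The wider spread of the lines is thus not particular to the members. Line 2 was the lowest of the lines in 29 members and line 3 the highest in 22. Such ranks were not counted over all genes, but the median difference of all genes was also lowest in line 2 and highest in line 3. On the spike-in probes line 2 also stood apart, with a mean of 0.81 on the scaled signal where the remaining arrays had -0.05 to 0.25, and its part in these ranks was not tested.

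In 8 members the lines spanned at least 2 log2 units, and these were picked for that spread after their values were seen. LjMADS71 lay at -5.95, -7.20 and -2.73 in the lines, against -3.30, -5.76 and -3.55 in wild type. Both groups thus hold bright and dim samples, with line 3 near wild type arrays 1 and 3 and line 1 near wild type array 2. LjMADS8 lay at -4.45, -3.12 and -6.64 in the lines, against -4.20, -4.51 and -4.24 in wild type. Wild type was tight here, while line 2 lay above it and line 3 below it. Line 3 was not well above background, and all 3 probes of the gene showed this order. LjMADS1 was low in line 2 at its brighter probe, at -1.73, -3.71 and -0.56 in the lines, against -1.15, -1.81 and -0.58 in wild type. Its dimmer probe, not tested, went the other way and was well above background in line 2 alone. There it lay at -8.46, -5.48 and -7.83 in the lines, against -8.22, -8.47 and -7.69 in wild type.

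Line 2 was also the lowest sample for LjMADS36, LjMADS50, LjMADS55 and LjMADS68. For LjMADS36 the lines were at -2.52, -4.63 and -2.19, against -2.86, -3.16 and -3.66 in wild type. LjMADS50 was at -5.21, -8.33 and -5.53 in the lines, against -6.33, -6.18 and -6.99 in wild type. LjMADS3 ran the other way, with line 2 the highest at -4.07 against -6.22 and -5.80 in lines 1 and 3. The dim gene LjMADS58 passed in line 3 alone, at -3.38 against -7.50 and -7.44 in lines 1 and 2 and -7.88, -6.99 and -7.57 in wild type, at 1 of its 2 probes. It was named after its values were seen. With 1 sample per line no difference between lines could be tested.

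**Figure D4:**
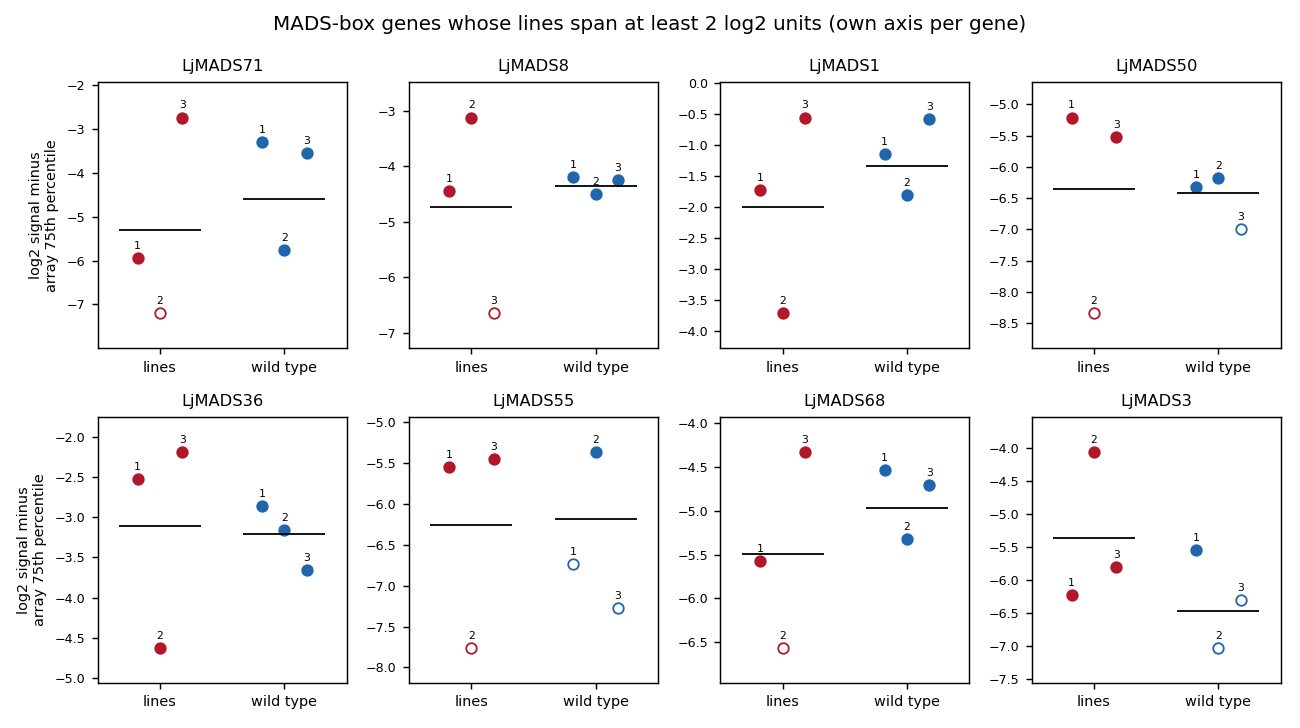
Signal on each array (vertical axis, log2 minus the array's 75th percentile, own range per gene) of the 8 MADS-box genes whose lines span at least 2 log2 units, with the lines in red and wild type in blue, numbered by line or array. Filled points were well above background and bars are group means: line 2 is the lowest line in 6 of the 8 panels, and LjMADS8 shows tight wild type arrays between line 2 and line 3.

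Other families of flowering and organ regulators gave no called gene (limma), where 2.32% of all genes were called higher and 1.18% lower. At an unadjusted p under 0.05, 1 SBP gene was higher and 3 were lower, and 1 YABBY, 2 ZF-HD, 2 HD and 0 TCP genes were lower, where all genes gave 9.83% higher and 10% lower. Of the 8 ZF-HD genes 3 were at least 2-fold lower, or 37.5%, against 11.8% of all genes that differed 2-fold in either direction. The SBP code, for proteins of the SQUAMOSA promoter-binding type that act in phase change, had 16 measured genes with a median log2 fold change of -0.10. The YABBY code, for factors that set the lower side of leaves and floral organs, had 6 with a median of -0.26, the zinc-finger homeodomain code ZF-HD 8 with -0.36, TCP, regulators of leaf growth and shape, 20 with -0.12, and the homeodomain code HD 70 with -0.12. The 1 measured gene of the LEAFY code, named for a regulator of flower meristem identity, gave 0.42. All 6 YABBY genes on the array were measured. A test of the MADS-box genes against these families was not made.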

How the data were processed

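RNA of 6 leaf samples was hybridised to 1 array each of a custom Agilent 1-colour (Cy3) design. Per the submitters' processing notes and the file headers, scans were read with Agilent Feature Extraction 10.7.3.1, and the deposited processed intensity had its background removed and a spatial trend taken out by that software. Arrays were not scaled to each other. The deposited value table repeats this intensity in 91068 of 91068 cells. Flags for background, saturation and outliers are other deposited columns, per the file headers. All arrays lay on 1 slide with 1 scan time.

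From the deposited intensity, log2 values were centred on the 75th percentile of the 14642 non-control spots of each array. Outlier spots, 32 to 78 on an array, were dropped, and no spot was saturated. Spots of 1 probe were averaged. A probe was tested if at least 0.5 of its spots were well above background on at least 3 arrays, which left 5038 of 6358 probes. Genes are names without an _est ending, at the probe with the highest mean signal. All probes were fitted together with limma 3.58.1 (lmFit, eBayes) in R 4.3.3, with 3 residual and 2.54 prior degrees of freedom, and Benjamini-Hochberg adjustment over them. On simulated data for this comparison of 5038 probes, the test called 15.8% of probes changed 2-fold and 58.2% of those changed 4-fold. The number of arrays limits the precision.

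The members and lists were chosen with earlier results of these data known. Genes named were those called, the 6 largest differences each way among genes above background on all arrays, up to 6 further small p-values, genes with a probe above background on every array of 1 group and on none of the other, the 5 narrowest intervals, and genes on no array. No gene met a rule on probes that differ by over 1. The codes LEAFY and HD were added after the names were seen. normexp used the median signals, since the files hold no mean signal. Same-numbered lines and wild type arrays were not treated as pairs.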

Additional observations from a re-analysis of the deposited data

How the results depend on the processing

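LjMADS19 and LjMADS43 kept their direction in each of the 18 alternatives that gave them a value and were called in 13. With all 6 arrays counted singly, 5 members were called higher and 3 lower: LjMADS2, LjMADS15, LjMADS17 and LjMADS22 joined LjMADS19, and LjMADS11 and LjMADS13 joined LjMADS43, where 177 and 145 of all 2543 genes were called. With the replicate block in that fit, 3 were higher and 2 lower, of 121 and 75 over all genes. Deviations of same-numbered samples correlated at 0.01, 0.17 and 0.07, and those of differently numbered samples at -0.21 to 0.25. With wild type arrays 1 and 3 nearly alike, this check cannot decide whether the numbers pair the samples. Called members numbered 0 higher and 0 lower with the slide row as a block, scaled on spike-in probes, and without wild type replicates 1 and 3 together (limma; 6, 5 and 7 members at an unadjusted p under 0.05). Over all genes these fits called 1 and 0, 6 and 2, and 3 and 0. Leaving out single replicates gave 0 to 4 higher and 0 to 1 lower: 0 and 0 without wild type array 2 or without line 1 (11 and 10 members at an unadjusted p under 0.05; 3 and 0, and 6 and 1, over all genes), and 4 higher without line 2 (LjMADS2, LjMADS6, LjMADS19 and LjMADS22), where 134 genes of the array were called higher. Normexp (LjMADS22) and quantile normalization (LjMADS2) each gave 2 higher, of 90 and 65 over all genes. The median fold change of the members was -0.0352 with normexp, and otherwise 0.06 to 0.36. Spike-in scaling moved the median of all genes to -0.26, against -0.08. The members measured numbered 86 with no filter on dim probes, 34 where all 6 arrays were required, and 41 where all spots of a probe had to pass, an alternative chosen after seeing the data, under which 25 genes were above background on all arrays and 34 on none, against 34 and 19. With no scaling, 61 genes of the whole array were called higher and 17 lower, against 59 and 30. Single members not called turned sign once each: LjMADS63 to 0.04 with the slide row as a block, LjMADS65 to -0.0006 with normexp, LjMADS1 to 0.19 without line 2. The causes were not tested. Dim members such as LjMADS2, LjMADS17 and LjMADS80 kept little of their fold change with normexp, so such values are to be read with caution.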
